A study of Mus musculus with 22 samples.

Results

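Motile cilia and the axoneme, the microtubule shaft that drives their beat, were followed here through 43 mouse genes in whole brains of 2 inbred strains. The genes were chosen by symbol, or by an older synonym on the array, as the regulator Foxj1 and 42 parts of the axoneme or genes of ciliated cells. Of these, 40 had a gene value, out of 15951 genes measured in all. The tissue was brain from naive adult male mice of strain DBA/2J (D2) and of strain C57BL/6J (B6) and given no treatment in either group. Each of the 12 D2 and 10 B6 arrays (Affymetrix Mouse Exon 1.0 ST) held the RNA of 1 mouse, and the spread behind the p-values is that between mice. All values are log2, and every difference is D2 minus B6. The whole brain was extracted as 1 piece, so fewer ciliated cells and less RNA per ciliated cell cannot be told apart.

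In the brain, motile cilia stand on the ependymal cells that line the ventricles, where their beat moves cerebrospinal fluid. The axoneme is a ring of microtubule doublets around a central pair of single microtubules. Outer and inner dynein arms on the doublets are the motors, and radial spokes carry signals between the central pair and the arms. The forkhead factor Foxj1, together with RFX factors that bind a motif called the X-box, turns on the genes of this structure. Mutations in such genes cause hydrocephalus in mice and primary ciliary dyskinesia in humans.

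The data were dim for these genes. Strain means of the 40 genes ran from 1.76 to 4.59, and 34 of the 40 had a mean over both strains below 3.46, the level that marks the 75th percentile of all probesets. None lay below the filter level of 1.44, which is the median of all probeset means. Only probesets with a mean at or above that level enter a gene value, so this result largely follows from the filter. Of the 1443 probesets of the 43 genes that carried 1 gene symbol, 902 (62.5%) were kept, and a measured gene had 3 to 73 of them (median 10.5). No gene value was formed for Dnah3, Dnah10 and Drc1. Dnah3 had no probeset with a single symbol, Dnah10 kept 2 probesets with differences of -0.18 and 0.0052, and Drc1 kept 1 with a difference of 0.12. Pairs of arrays of the same strain correlated over the kept probesets with a median r of 0.945 and pairs of different strains with 0.935. A letter, A or B, in the name of each array's file was taken as a possible batch, and 2 D2 and 2 B6 arrays had letter B. The array medians over all probesets lay between 1.45 and 1.51 in D2 and between 1.41 and 1.47 in B6. Of the markers that check for brain tissue, the neuronal gene Snap25 averaged 10.0 ± 0.16 in D2 and 10.1 ± 0.23 in B6 (SD), and the myelin gene Mbp 8.34 ± 0.15 in D2 and 8.41 ± 0.15 in B6.

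Of the 40 genes, 4 rose in D2 and 4 fell, and the other 32 did not pass the test (limma, adjusted p under 0.05). Cfap54, Dnah6, Cfap46 and Dnah5 rose. Foxj1, Cfap52, Dnah7a and Dnah7b fell. This is 20% of the genes, against 10.9% of all genes tested. Of all genes, 2.56% rose and 8.29% fell. The median difference of the 40 genes was -0.023, and that of all genes -0.053. For Cfap54, Dnah6, Cfap46 and Dnah7b, 4 of the 40, the arrays of the strains did not overlap, which held for 1.18% of all genes. The values of the 40 genes rest on 3 to 73 probesets each, and these shares were not matched for that number. Within letter B alone, with 2 arrays a strain, Cfap54 and Dnah6 were called and the other 6 were not. The values of the 8 called genes are plotted by array.

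**Figure D1:**
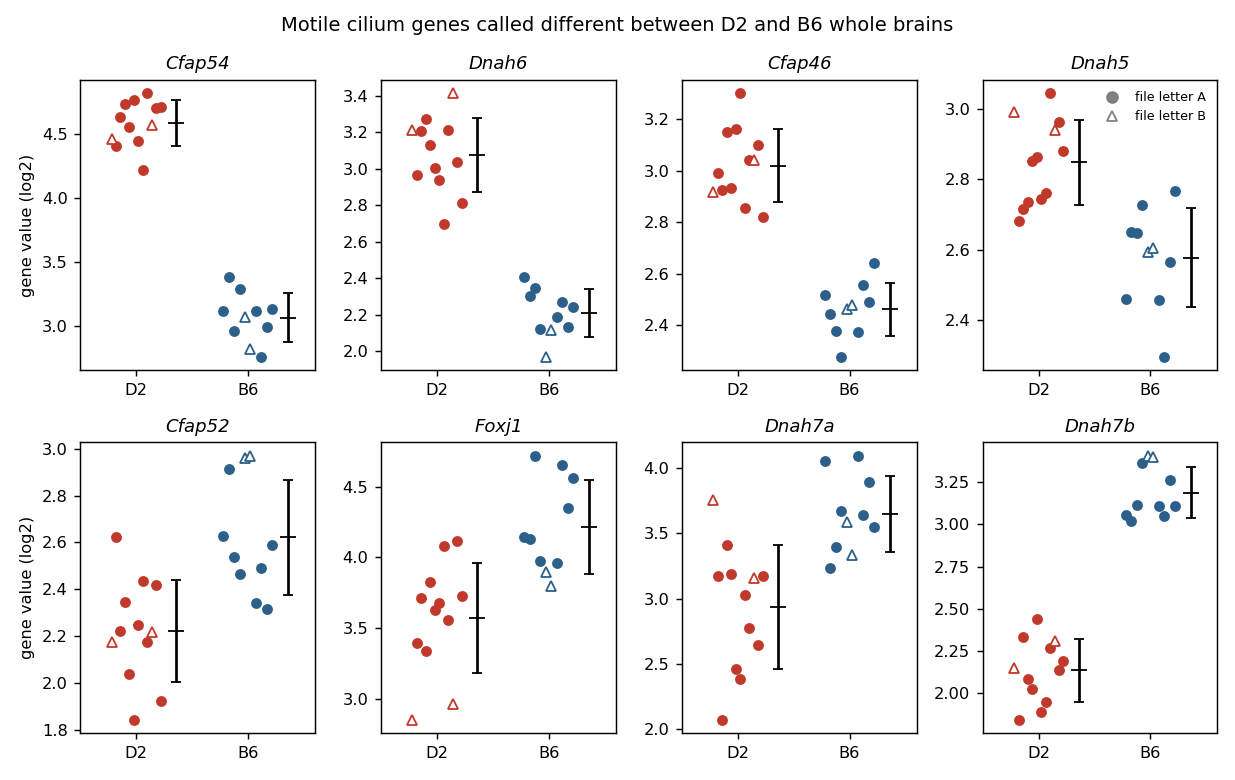
Gene value (log2) of the 8 called genes on each array, D2 left and B6 right, with mean and SD as bars; circles are arrays of file letter A and triangles of letter B. Cfap54, Dnah6 and Cfap46 separate with D2 above B6, Dnah7b separates with D2 below, and the other panels overlap.

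Foxj1, on chromosome 11, had a lowest value of 2.85, a median of 3.65 and a highest of 4.12 in D2, against 3.80, 4.14 and 4.72 in B6. All 12 D2 arrays lay below the B6 median and 9 below the lowest B6 array. The means were 3.57 ± 0.39 in D2 (SD, n = 12) and 4.22 ± 0.33 in B6 (SD, n = 10). The gene fell by 0.65 (SE 0.15, adjusted p = 0.00397, limma), which is 1.56-fold lower in D2. Its 6 kept probesets all lay lower in D2, by between 0.061 and 0.76, and 1 of them, 5279040, passed the test with 4.05 in D2 and 4.81 in B6. Probeset 4966801 of the same gene differed by little, at 5.81 ± 0.25 in D2 and 5.87 ± 0.24 in B6. The 2 D2 arrays of letter B had a mean of 2.91 and the 10 of letter A 3.70, and in B6 these means were 3.85 and 4.31. Within letter A alone the difference was -0.60 (adjusted p = 0.00322, limma) and within letter B alone -0.94 (adjusted p = 0.107). With the mean instead of the median of its probesets the difference was -0.40 (adjusted p = 0.00987, limma). With the array median as a covariate it was -0.69, and the call was lost (adjusted p = 0.0846).

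Among the outer dynein arm genes, 1 of 5 measured rose and none fell. Dnah5, on chromosome 15, encodes a heavy chain of the outer arm, the gene often mutated in human ciliary dyskinesia. Its values ran from 2.68 through a median of 2.86 to 3.04 in D2, against 2.30, 2.60 and 2.77 in B6. The strains overlapped, with 7 of 12 D2 arrays above the highest B6 array. Dnah5 averaged 2.85 ± 0.12 in D2 and 2.58 ± 0.14 in B6 (SD), a rise of 0.27 (SE 0.069, adjusted p = 0.0103, limma). The rise was 0.47 when only probesets at or above 3.46 were used. The other heavy chains and the intermediate chain Dnai1 did not pass the test. Their differences were 0.26 for Dnai1 (adjusted p = 0.196), 0.18 for Dnah17 (0.216), -0.11 for Dnah11 (0.315) and -0.12 for Dnah9 (0.345), all by limma.

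The inner dynein arm had calls of both signs, with 1 riser and 2 fallers among 7 measured. Dnah6, an inner arm heavy chain gene on chromosome 6, had values from 2.70 through 3.08 to 3.42 in D2, against 1.97, 2.21 and 2.41 in B6. Every D2 array was above every B6 array. The means were 3.08 ± 0.20 in D2 and 2.21 ± 0.13 in B6 (SD), a rise of 0.87 (SE 0.082) or 1.82-fold with an adjusted p of 1.4e-08 (limma). Dnah7a and Dnah7b are paralogous inner arm genes of the mouse, both on chromosome 1 but with other measured genes between them. Dnah7b ran from 1.84 through 2.14 to 2.44 in D2, against 3.02, 3.11 and 3.41 in B6. Here every D2 array was below every B6 array. Dnah7b averaged 2.13 ± 0.19 in D2 and 3.19 ± 0.15 in B6 (SD), so that it fell by 1.05 (SE 0.081, adjusted p = 2.6e-10, limma), which is 2.08-fold lower. Over the probesets at or above 3.46 alone, the difference was -0.60 (adjusted p = 8.1e-06, limma).

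Dnah7a ran from 2.07 through 3.09 to 3.75 in D2, against 3.24, 3.61 and 4.09 in B6. The strains overlapped, with 10 of the 12 D2 arrays below the lowest B6 array. Its means were 2.93 ± 0.48 in D2 and 3.65 ± 0.29 in B6 (SD), a difference of -0.71 (SE 0.16, adjusted p = 0.0039, limma) or 1.64-fold lower. Within letter A alone the difference was -0.86, and within letter B it was -0.0072. Without the 1 probeset that had an exon usage call, 5026055, it was -1.19. Of the 5 kept probesets this was the only 1 above 0, so a larger fall follows from leaving it out. Near-identical copies can share probes, and 5 probesets listed under more than one symbol touched these paralogs and were not used. How far signal of one copy enters the value of the other was not tested. The other inner arm genes did not pass the test, with 0.11 for Dnah2, 0.097 for Dnah1, -0.026 for Dnah12 and -0.27 for the light chain gene Dnali1 (adjusted p from 0.253 to 0.935, limma). Dnah12 rests on only 3 kept of its 26 probesets with a single symbol, and 64 probesets that it shares with other symbols were not used.

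Promoters are shown for these inner arm genes because they carry 3 of the 8 calls, in both directions, and because the copies Dnah7a and Dnah7b can be read against each other. Each line is the 250 bases before the annotated start, 5′ to 3′ on the gene's strand, from RefSeq (GRCm38.p6). The windows are chr6:73221632-73221881 on the minus strand for Dnah6, chr1:53706785-53707034 on the minus strand for Dnah7a and chr1:46066603-46066852 on the plus strand for Dnah7b. Capitals mark matches to the X-box arm GTTGCCA and to an inverted repeat that was picked after these sequences had been read.
Dnah6: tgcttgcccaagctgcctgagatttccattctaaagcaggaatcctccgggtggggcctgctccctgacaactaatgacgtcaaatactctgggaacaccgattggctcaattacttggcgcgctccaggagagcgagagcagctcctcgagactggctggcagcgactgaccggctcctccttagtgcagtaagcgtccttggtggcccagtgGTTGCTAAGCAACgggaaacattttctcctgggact
Dnah7a: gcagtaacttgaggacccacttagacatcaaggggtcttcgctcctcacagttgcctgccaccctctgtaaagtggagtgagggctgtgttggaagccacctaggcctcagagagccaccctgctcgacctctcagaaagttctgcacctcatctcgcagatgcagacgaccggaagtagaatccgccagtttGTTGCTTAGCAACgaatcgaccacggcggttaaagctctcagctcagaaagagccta
Dnah7b: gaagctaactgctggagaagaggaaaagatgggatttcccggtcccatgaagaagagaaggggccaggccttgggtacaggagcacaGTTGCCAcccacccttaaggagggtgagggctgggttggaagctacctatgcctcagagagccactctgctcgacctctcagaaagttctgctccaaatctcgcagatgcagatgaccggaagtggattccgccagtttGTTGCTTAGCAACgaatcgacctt

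All 3 windows held an inverted repeat, GTTGC and GCAAC with any 3 bases between, close to the start. Its first base lay at position -36 in Dnah6, -57 in Dnah7a and -24 in Dnah7b. This repeat was searched for after these sequences had been read, and it is its own reverse complement. Of the 37 genes on the list with a promoter in the table, 5 held it (13.5%), namely Dnah6, Dnah7a, Dnah7b, Tekt2 and Tekt4, against 0.233% of 27025 genes. The 3 promoters shown are among the holders because the repeat was read from them, so these shares are not a test. In Dnah7a and Dnah7b the repeat lay inside a run of 33 identical bases, at positions -68 to -36 and -35 to -3, so these copies are not separate counts. The single arm GTTGCCA, on either strand, stood at -163 in Dnah7b and in 6 of the 37 promoters (16.2%), against 4.19% of all genes, and the longer form with ATGG after GTTGCC in 0 of the 37, against 0.529%. The forkhead motif GTAAACA, on either strand, was in 3 of 37 (8.11%), those of Dnah17, Cfap43 and Ak7, against 3.54%. Holders of these motifs rose, fell or did not pass the test, and a match is a description of the letters only. The promoters of the called genes Cfap46, Dnah5 and Cfap52 held none of these motifs. For Foxj1 and Cfap54 no promoter was available.

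The central pair had 2 of its 8 genes higher in D2 and none lower. Cfap54, on chromosome 10, encodes a protein of the central apparatus whose loss in mice impairs ciliary beating. Its values ran from 4.22 through 4.60 to 4.82 in D2, against 2.75, 3.09 and 3.38 in B6. Every D2 array was above every B6 array. The means were 4.59 ± 0.18 in D2 and 3.06 ± 0.19 in B6 (SD), a rise of 1.53 (SE 0.084, 95% interval 1.35 to 1.70) or 2.88-fold with an adjusted p of 2.7e-13 (limma). It was 1.51 within letter A alone and 1.58 within letter B alone, and the call held in both.

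Cfap46, a central apparatus gene on chromosome 7, ran from 2.82 through 3.02 to 3.30 in D2, against 2.28, 2.47 and 2.64 in B6. The strains again did not overlap. Its means were 3.02 ± 0.14 in D2 and 2.46 ± 0.10 in B6 (SD), a rise of 0.56 (SE 0.068, adjusted p = 1.2e-06, limma) or 1.47-fold. The platform lists Cfap46 under 2 older symbols, and tested apart these rose by 0.76 (31 probesets, adjusted p = 1.35e-07) and by 0.42 (20 probesets, adjusted p = 0.00142). The remaining central pair genes did not pass the test. Differences were 0.19 for Cfap65, 0.03 for Spag16, -0.02 for Hydin, -0.036 for Spef2, -0.11 for Spag17 and -0.15 for Cfap69. Hydin, whose mutation gives mice hydrocephalus, ran from 1.93 through 2.18 to 2.38 in D2 and from 2.03 through 2.16 to 2.50 in B6.

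The doublet lumen genes and tektins, which encode proteins inside and along the doublet microtubules, had 1 of 7 lower in D2 and none higher. Cfap52, on chromosome 11, ran from 1.84 through 2.22 to 2.62 in D2, against 2.31, 2.56 and 2.97 in B6. Of the 12 D2 arrays, 8 lay below the lowest B6 array. It averaged 2.22 ± 0.22 in D2 and 2.62 ± 0.25 in B6 (SD), and fell by 0.40 (SE 0.10, adjusted p = 0.00908, limma). The call was lost with the array median as a covariate, without a filter, and within either letter alone, at differences of -0.36, -0.32, -0.31 and -0.77. Tekt1, a tektin, had 12 of 12 D2 arrays above the B6 median and a difference of 0.36 that missed the threshold (adjusted p = 0.0726, limma). It passed when array medians of the gene values were set equal, at 0.46. The others had differences of 0.16 for Tekt2, 0.11 for Mns1, -0.10 for Tekt4, -0.21 for Cfap126 and -0.29 for Enkur.

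None of the 4 measured genes of the inner arm tether and ruler passed the limma test, nor any of the 4 radial spoke genes, and 0 of either had an unadjusted p under 0.05. The tether genes Cfap43 and Cfap44 had differences of 0.038 and 0.085, and the ruler genes Ccdc39 and Ccdc40, which set the spacing of the arms, 0.054 and 0.088. The spoke head genes Rsph1, Rsph4a and Rsph9 had 0.036, -0.043 and 0.03, and Cfap206, a gene of the spoke base, -0.036. Rsph9 had a highest value of 4.79 and a median near 4.5 in either strain, at 4.47 in D2 and 4.49 in B6. Among the last 4 genes the adenylate kinase Ak7 had -0.088, Cfap70 -0.033 and the ependymal markers Tmem212 and Ccdc153 -0.11 and -0.37. Ccdc153 had 8 of 12 D2 arrays below the lowest B6 array but missed the threshold (adjusted p = 0.0593, limma), and it passed within letter A alone at -0.49 but had a difference of 0.18 within letter B alone. Over all 32 genes that did not pass, differences lay between -0.37 and 0.36, with SE from 0.065 to 0.18. Their 95% intervals spanned -0.63 to 0.63. Of the 32, 15 were above 0 and 17 below.

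**Figure D2:**
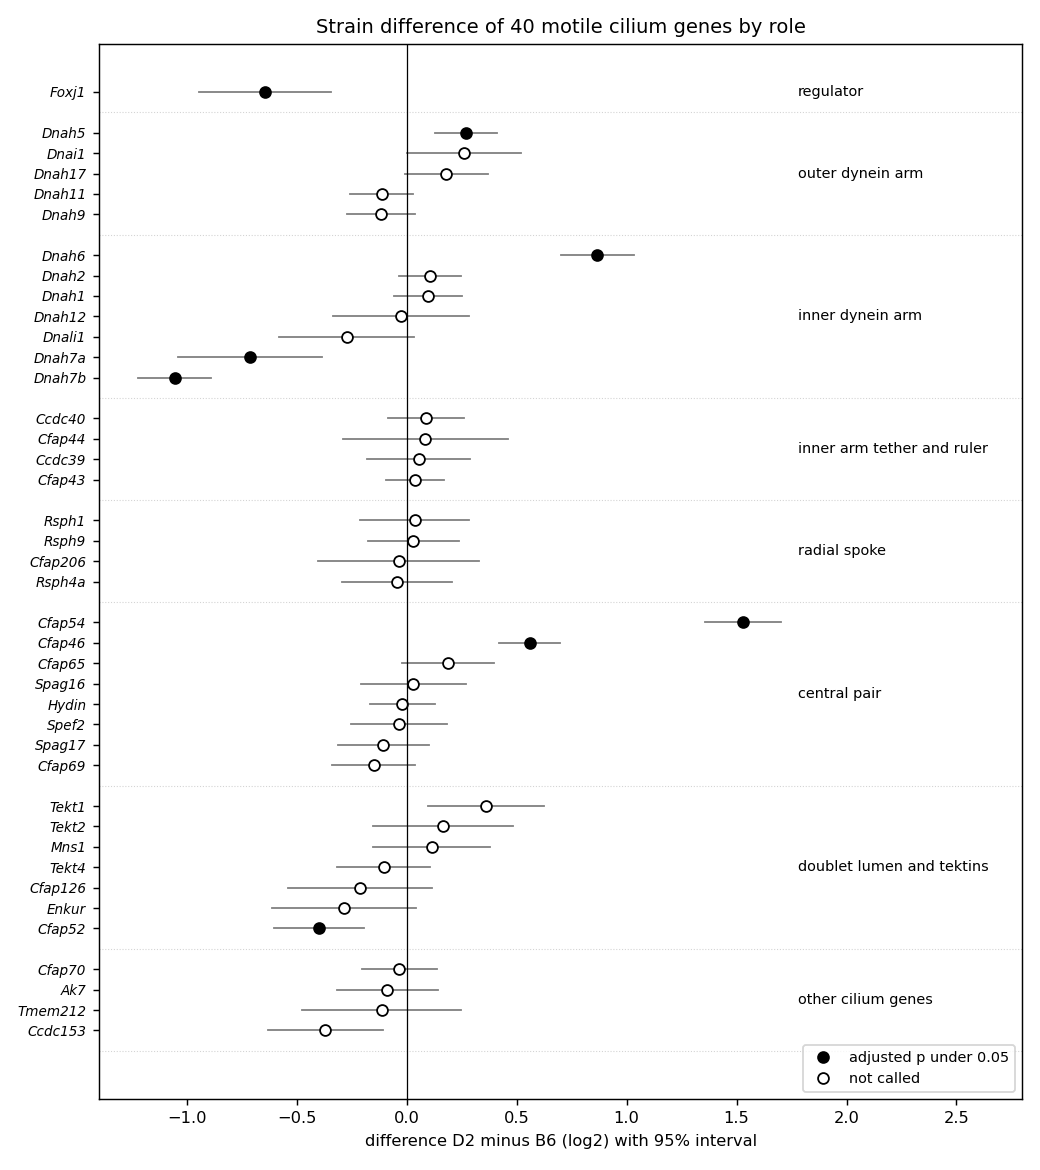
Difference D2 minus B6 (log2) of the 40 measured genes by role, with 95% intervals; filled points passed the test. Cfap54 at 1.53 and Dnah7b at -1.05 lie at the ends, and the radial spoke and the tether and ruler genes lie near 0.

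The probesets along each gene showed whether a gene moved as a whole. Of the 902 kept probesets, 152 were called (16.9%), 117 higher and 35 lower in D2. Of all 595203 kept probesets, 3.91% were called, 1.67% higher and 2.24% lower. Among the 152 in cilium genes, 14 had a B6 mean and 10 a D2 mean under the filter level, so the filter kept these through the other strain alone and they had to differ. Cfap54, Dnah6, Cfap46 and Dnah7b held 132 of the calls. The other genes on the list held 20 calls among 690 probesets (2.90%). Cfap54 moved along nearly its full set, with 53 of 55 probesets called, all higher, from 0.69 to 2.21 (median 1.58). Its probeset 5025099 averaged 6.54 in D2 and 4.33 in B6. Dnah6 was higher in D2 at all 70 probesets but unevenly, from 0.016 to 1.92, and 40 of the 70 were called. Its probeset 4315077 had 5.88 in D2 and 4.26 in B6, while probeset 4842332 had 4.64 in D2 and 4.55 in B6.

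Cfap46 had 15 of 51 probesets called, all higher, and 48 of the 51 above 0. In Dnah5, 4 of 73 were called, all higher, and 58 were above 0. In Dnah7b, 24 of 36 were called, all lower, and the differences ran from -1.81 to 0.67. Its probeset 5483899 had 4.58 in D2 and 5.63 in B6, but probeset 5187470 had 4.00 in D2 and 3.98 in B6. Of the 5 probesets of Dnah7a, 4 were called, all lower, and 5026055 went the other way with 3.68 in D2 and 3.23 in B6 (adjusted p = 0.291, limma). Cfap52 had 1 of 14 called, lower. Single called probesets also stood in genes that did not pass as a whole, 3 higher and 1 lower in Dnah2, 1 of each in Hydin, 1 higher in Cfap65, and 1 lower each in Dnah9, Dnah11 and Cfap69.

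**Figure D3:**
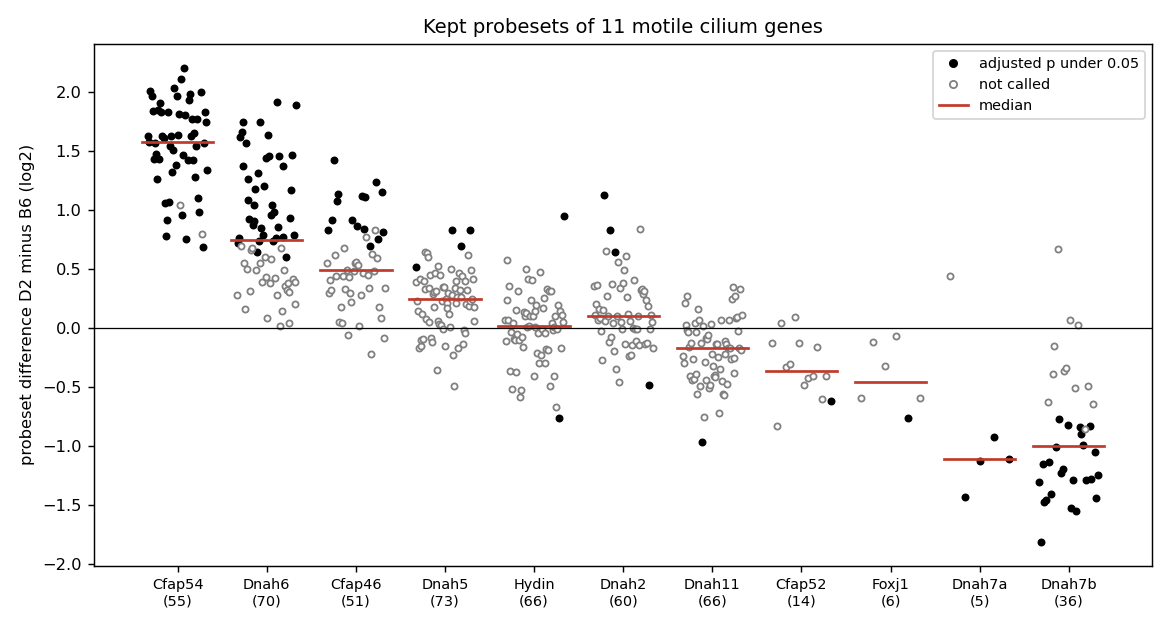
Difference D2 minus B6 (log2) of each kept probeset of 11 genes, with the number of probesets in brackets; filled points passed the test and bars are medians. The points of Cfap54 all lie above 0, those of Dnah6 spread upward from 0, and most of Dnah7b lie below 0.

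**Figure D4:**
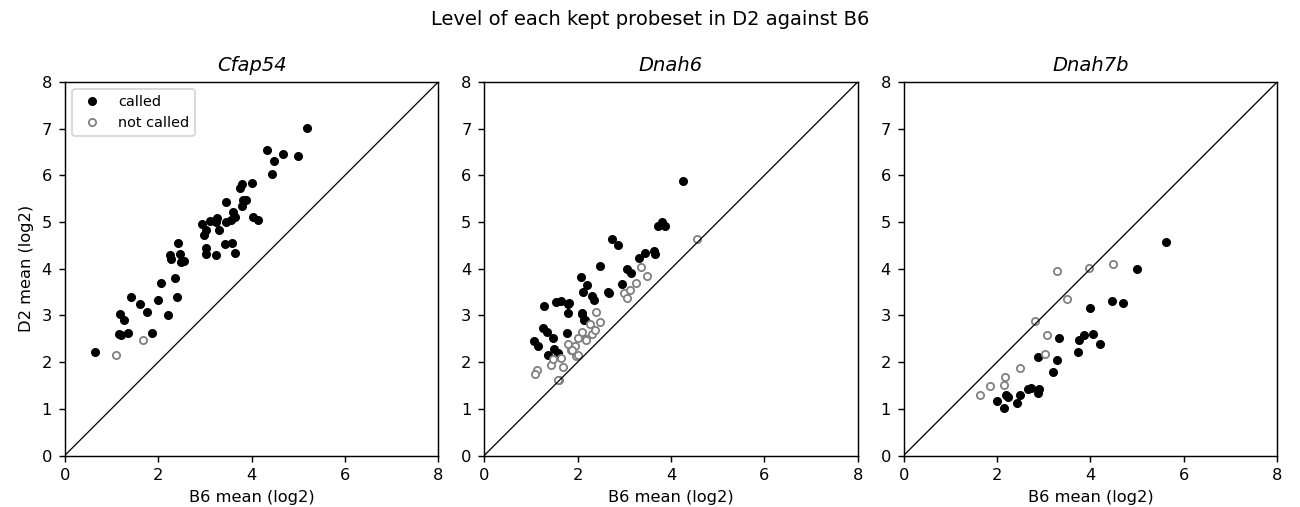
Mean level (log2) of each kept probeset of Cfap54, Dnah6 and Dnah7b in D2 (vertical) against B6 (horizontal); the line marks equal levels and filled points passed the test. Probesets of Cfap54 run parallel to the line, and some of Dnah6 and Dnah7b lie on or near it.

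Exon usage was measured as the splicing index, the log2 value of 1 probeset from which the value of its gene on that array is subtracted. Of the 899 probesets of the 40 genes, 37 (4.12%) passed an adjusted p under 0.05 with an index difference of at least 0.5, 21 higher and 16 lower in D2. Over all probesets tested the share was 1.67%. Among the 37, 2 had only their B6 mean and 2 only their D2 mean under the filter level, so the filter kept them through the other strain alone. The calls lay in 11 of the 40 genes (27.5%), against 14% of all genes. A gene with more probesets has more chances of a call, and these shares were not matched for it (899 probesets of 40 genes, against 236254 of 15951). Of the 37 calls, 29 lay in genes that also passed at gene level and 8 in genes that did not. The index subtracts the gene value, so in a gene that moved, a probeset that stayed level can be called. The 4.12% is therefore tied to the gene-level calls and is not a separate excess of exon usage. Outside the genes that passed, Hydin probeset 5598234 ran from 3.81 through 4.50 to 5.03 in D2, against 2.83, 3.53 and 4.08 in B6. It averaged 4.46 ± 0.33 in D2 and 3.50 ± 0.44 in B6 (SD) while the gene value of Hydin differed by -0.02, an index difference of 0.98 (adjusted p = 0.000838, limma). This call was lost only within letter B alone, among the alternatives tried. Dnah2 probeset 4501544 had 2.03 ± 0.59 in D2 and 0.90 ± 0.52 in B6, an index difference of 1.03. Its B6 mean lies under the filter level of 1.44, so it was kept only through its D2 values, and the difference is given as a description.

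Further index differences in genes that did not pass as a whole were 0.69 for Cfap65 probeset 5322853, -0.63 for Dnah9 probeset 4573708 and -0.65 for Tekt1 probeset 5358063. In the called genes, the probeset with the largest index difference was 5575212 in Cfap54 (-0.84), 5150662 in Dnah6 (1.05), 4555857 in Cfap46 (0.87), 4690065 in Dnah7b (1.73), 5026055 in Dnah7a (1.16) and 4966801 in Foxj1 (0.58). The Dnah6 probeset, with 3.21 in D2 and 1.29 in B6, was likewise kept only through D2. For Dnah7b, Dnah7a and Foxj1 these are probesets that did not fall with their gene. For Cfap54 it is the probeset that rose least. All of these calls except that of Hydin were lost with the array median as a covariate. The files give no position of a probeset along its transcript.

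The genes next to a called gene were also measured, as the 4 nearest measured genes along the chromosome. None of the 4 neighbours passed the test for Cfap54, Cfap46, Dnah6, Foxj1 or Cfap52. Of the neighbours of Dnah7a, 2 fell (Stk17b by 0.48 and Gm6801 by 0.28). One fell beside Dnah7b (Slc39a10, by 0.29) and one beside Dnah5 (Otulinl, by 0.43, while Dnah5 rose). Of all genes tested, 10.9% passed the test and 8.29% fell, and whether the falls of these neighbours are local was not tested.

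Other genes of motile cilia were counted from a list of 78, of which 61 were measured. Of these, 1 rose and 6 fell (11.5%, against 10.9% of all genes), and their median difference was 0.024. When array medians of the gene values were set equal, 7 rose and 3 fell, with a median of 0.12, so the balance of rises and falls depends on the scaling. Dnah8, an outer arm heavy chain gene, averaged 2.39 ± 0.14 in D2 and 1.87 ± 0.13 in B6 (SD), with no overlap and a rise of 0.52 (adjusted p = 7.1e-06, limma). It was dim, with 30 of its 108 probesets kept and 1 of them at or above 3.46. Ulk4, a kinase gene tied to ciliated ependyma in mice, averaged 2.90 ± 0.11 in D2 and 3.85 ± 0.13 in B6, with no overlap and a difference of -0.95 (adjusted p = 3.2e-11). Capsl fell by 0.70 and Iqub, a gene of the radial spoke, by 0.66. Without a filter on dim probesets Capsl differed by -0.092, and with the array median as a covariate Iqub differed by -0.31, and those calls were lost. None of 15 measured regulators of ciliogenesis passed the limma test, and 1 (Cep152) had an unadjusted p under 0.05. Rfx3 stood at 5.98 ± 0.16 in D2 and 6.05 ± 0.18 in B6, Mcidas stood at 3.01 ± 0.22 in D2 and 2.93 ± 0.35 in B6, and Gmnc at 3.12 ± 0.33 in D2 and 3.27 ± 0.19 in B6.

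Markers of choroid plexus, the tissue beside the ependyma in the ventricles, lay on the same side as Foxj1. The 40 genes as a set were split, with 19 differences above 0 and 21 below. All 13 markers measured of a list of 14 had differences below 0 (median -0.27), and 4 fell. Of all genes tested, 62.0% had differences below 0 and 8.29% fell. The 4 markers that fell were Folr1 by 0.61, Kcnj13 by 0.56, Otx2 by 0.49 and Steap1 by 0.49. When array medians of the gene values were set equal, 10 of the 13 stayed below 0 and 4 fell, and with the array median as a covariate 10 stayed below 0 and 1 fell. The summed linear level of the 13 ran from 1843 to 2676 in D2 and from 2322 to 2749 in B6. Most of this sum came from the brightest markers, Ttr and Enpp2, at means of 10.7 and 8.91 in D2. Neither passed the test, and the sum says little about the other markers. No marker lay under the filter level, which largely follows from the filter on probesets. Ttr, the defining product of this tissue, averaged 10.7 ± 0.17 in D2 and 10.9 ± 0.074 in B6 (SD), a difference of -0.16 (adjusted p = 0.159). Of 8 measured markers of ependyma without a part in the axoneme, Gja1 rose by 0.28 and Tm4sf1 fell by 0.65, but neither call held without a filter, at -0.11 and -0.21. Their summed linear level ran from 269.7 to 399.4 in D2 and from 325.1 to 409.9 in B6. The astrocyte gene Gfap fell by 0.80, while Aqp4 had a difference of 0.0052. The part of these tissues in the differences of the axoneme genes was not tested.

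Covariation between mice of 1 strain was low. Over the 780 pairs of the 40 genes, the median Pearson r was 0.033 over the 12 D2 arrays and -0.0065 over the 10 B6 arrays, as a description. Over all pairs of the 15951 genes it was 0.083 in D2 and 0.078 in B6. Pairs of choroid plexus markers had 0.049 in D2 and 0.197 in B6. The median SD of the 40 genes within a strain was 0.24 in D2 and 0.23 in B6, against 0.25 and 0.24 over all genes.

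Foxj1 was set against each of the other 39 genes in each strain, which gives 78 relations. Of these, 5 had a permutation p under 0.05 and 0 passed after Benjamini-Hochberg adjustment, with a lowest adjusted p of 0.474. The relation with the lowest p was that with Dnali1 in D2 (r = 0.739, permutation p = 0.00608; rho = 0.629, permutation p = 0.0328; n = 12). Without the 2 arrays farthest from the median of Foxj1, r was 0.509. The sign of r was the same in both strains for 23 of the 39 genes.

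**Figure D5:**
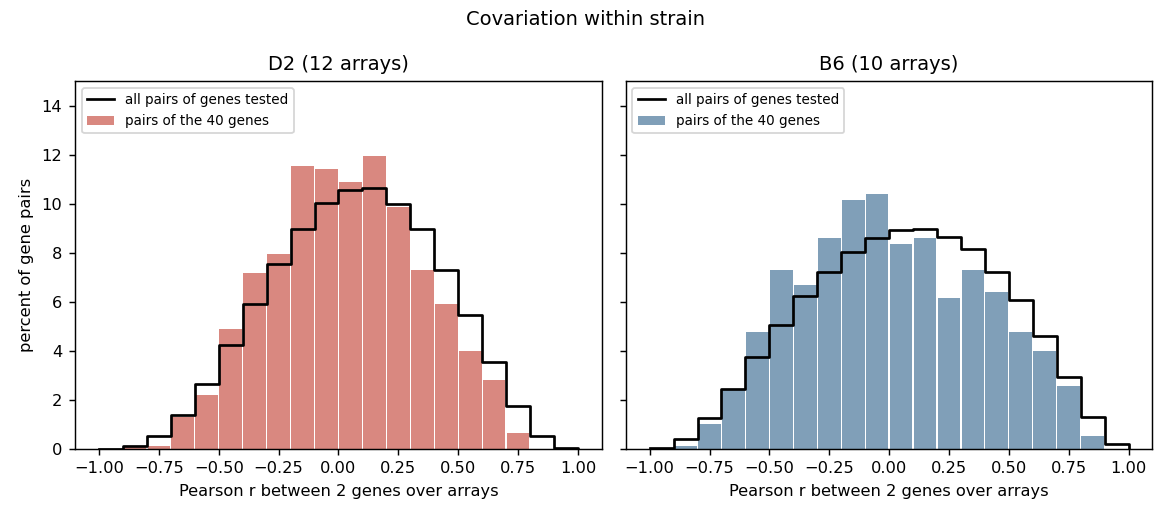
Share of gene pairs (percent) by Pearson r within D2 (left) and B6 (right); filled bars are the 780 pairs of the 40 genes and the line is all pairs of genes tested. The bars centre near 0, at medians of 0.033 in D2 and -0.0065 in B6, to the left of the medians of all pairs, 0.083 and 0.078.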

How the data were processed

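The authors deposited log2 values for 1201338 probesets of the exon array. The submitters' processing notes name RMA, R 2.6.0 and the package affy 1.12.2. RMA subtracts background, equalizes arrays by quantiles and gives 1 value per probeset, and its options are not given in the sources used here. Per the labels' protocols, 24 arrays were hybridised and 2 read on another scanner were left out. Probesets with an empty value on any array (10932) were dropped. The 595203 whose mean over the 22 arrays reached 1.44, the median of such means, were kept. Precision is limited by the number of arrays.

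Names came from the platform annotation, where 309786 used probesets had 1 symbol and 6385 several, and probesets with several were not used. Of 22276 platform symbols, 17991 were current in the RefSeq gene table (GRCm38.p6), 4224 were updated through a synonym and 61 kept. Of the 43 genes, 27 stood under an older symbol. The value of a gene is, per array, the median over kept probesets, for genes with at least 3. Differences were fitted with lmFit and eBayes of limma 3.58.1 as D2 minus B6, adjusted by Benjamini-Hochberg over all genes or probesets, and called at an adjusted p under 0.05. Foxj1 relations used 100000 resamples, two-sided. Probesets over sequence variants between the strains were not removed, and their part in the differences was not tested. The functions were tested on simulated data.

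All 43 genes were accounted for, with values by array for Foxj1 and up to 12 called genes. Probesets were named as those with the largest index difference of a gene, and others beside these were picked after their values were seen. Other genes were the 10 most like the mean of the 40 and up to 4 called genes per list. The genes, lists and tests were chosen with earlier results of these data known. Leaving out each array and splitting the symbols of Cfap46 were added after the data were seen. Figures were drawn with matplotlib 3.10.9.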

Additional observations from a re-analysis of the deposited data

Results flagged for a closer look

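Of the 40 genes, Dnah17, an outer dynein arm heavy chain gene, had 1 B6 array far from the others. Replicate 2 of B6 had 1.93 and the next lowest B6 array 2.28, a gap of 0.468 of the whole range of the 10 arrays, just past Dixon's critical value. Chance flags about 1 in 20 groups, and 40 groups were tested. The 12 D2 arrays were not tested in this way, which is done for groups of up to 10.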

How the results depend on the processing

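Of 94 values of the 8 called genes under alternative settings, 84 kept their side of the threshold, 10 lost the call and none changed sign. All 8 stayed called without any 1 array, with 8 to 10 genes of the 40 called and 1303 to 1945 of all genes. Cfap54 and Dnah6 were called under every setting. Within letter B alone, where each strain has 2 arrays, 2 of the 40 genes were called, 74 of all genes, and 0 probesets of the 43 genes, 0 for exon usage and 0 other motile cilium genes (limma). At an unadjusted p under 0.05 the last 3 counts were 201, 118 and 11. There Dnah7b differed by -1.17 (adjusted p = 0.0533). For all genes, the array median as a covariate gave 489 calls (263 higher, 226 lower), the mean of the probesets 2715, and centring 1777 with 1027 higher and 750 lower, against 409 and 1323 as reported, while the median of all genes moved to 0.047 with centring and 0.025 with the covariate. The covariate and the strain are linked, since array medians are higher in D2. The 152 called probesets became 91 with the covariate and 68 with the filter at the 75th percentile. The 37 exon usage calls became 8 with the covariate, 13 with that filter and 21 within letter A. The 7 other motile cilium genes (1 higher, 6 lower) became 10 with centring (7 higher, 3 lower), 4 with the covariate, 13 with the mean, 1 with that filter and 4 without D2 replicates 13, 14 and 19. The B6 median r became 0.095 with centring. Dnah7a moved to -1.19 without its 1 probeset of an exon usage call, which follows from leaving out the only probeset above 0. The causes of the other moves were not tested. No paired analysis was possible because the replicate numbers of D2 (13 to 24) and B6 (1 to 12) are not shared.

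Of 364 values of the 32 genes that did not pass, 12 gained a call (Ccdc153, Tekt1, Dnai1, Cfap65 and Dnah11) and 60 changed sign. Among these, Ccdc153 began at -0.37, Enkur at -0.29, Dnai1 at 0.26 and Cfap126 at -0.21. With the covariate these were Ak7 at 0.099, Ccdc40 -0.056, Cfap126 0.37, Cfap65 -0.043, Cfap69 0.084, Dnah11 0.0058, Dnah12 0.018, Dnah17 -0.081, Enkur 0.13, Mns1 -0.21, Rsph4a 0.010, Spef2 0.089 and Tekt2 -0.10. Array weights gave Cfap206 0.033, Dnah12 0.036 and Rsph9 -0.0025. Centring gave Ak7 0.012, Cfap206 0.064, Cfap70 0.067, Dnah12 0.073, Hydin 0.080, Rsph4a 0.057 and Spef2 0.064. The filter at the 75th percentile gave Dnah1 -0.11, Dnah9 0.060, Hydin 0.27 and Rsph9 -0.028. Letter A alone gave Cfap206 0.034, Dnah12 0.073, Rsph4a 0.020 and Rsph9 -0.041. Letter B alone gave Ccdc153 0.18, Ccdc39 -0.14, Cfap44 -0.17, Dnah1 -0.13, Dnah17 -0.087, Dnah9 0.10, Dnai1 -0.22, Hydin 0.13, Mns1 -0.040, Rsph1 -0.044, Spag16 -0.13, Tekt2 -0.19 and Tmem212 0.18. The mean of the probesets gave Cfap206 0.20, Dnah12 0.051, Hydin 0.0073 and Spef2 0.00048. Without a filter the values were Ak7 0.13, Cfap206 0.21, Dnah12 0.0032, Rsph4a 0.14, Rsph9 -0.050, Spag16 -0.12, Spag17 0.013, Tekt2 -0.041 and Tmem212 0.063, and the ependymal marker Gja1 had -0.11. Hydin was at 0.0022 over probesets without an exon usage call. Without D2 replicates 13, 14 and 19, Cfap206 was at 0.11 and Dnah12 at 0.027.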

Other observations

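The genes whose value, centred within strain, followed the mean of the 40 genes most closely over the 22 arrays were Otud5 (r = 0.808), Tmem100 (0.780), Entpd2 (0.768), Lamp5 (0.763), Rnf144b (0.760), Pcid2 (0.759), Cib2 (0.757), Wbp1 (0.755), Pomk (0.750) and Il2rb (0.750). This is a description with no test, since these are the highest of all genes measured. The points share their arrays, and the centred mean of the 40 genes ranged only from -0.11 to 0.10 over the arrays. No gene of the lists of cilium, choroid plexus or ependymal genes was among the 10.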
